A study of Rattus norvegicus with 19 samples.

Results

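The comparison described here adds pirfenidone (PFD) to empagliflozin (EMPA) in a rat model of heart failure with preserved ejection fraction. Its members were chosen by title: the 3 libraries titled EMPA and PFD treated at 9 weeks, set against the 2 titled EMPA treated at 9 weeks, which makes 5 of the 19 heart libraries of the series. It asks which transcripts differed when the antifibrotic drug was given on top of the glucose transporter inhibitor. The study sequenced left ventricular RNA, 1 library per heart.

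All rats were Sprague-Dawley animals of 24 weeks of age at the start, and the labels call every one of them male. For the first 5 weeks both groups drank water with L-NAME at 0.5 g/L and ate a high-fat diet with 60% of its energy from lard, and the study's discussion speaks of 9 weeks of induction. They were then gavaged daily for 4 weeks, the EMPA group with EMPA at 0.35 g/kg and the EMPA + PFD group with the same dose plus PFD at 0.3 g/kg. The study's methods describe the EMPA dose as supratherapeutic, and 1 further EMPA sample and 1 further PFD sample were left out by the authors because their files were corrupted. In a second pair of groups, 2 rats had PFD alone and 3 untreated rats had only the vehicle, on the same schedule. The EMPA libraries held 7430539 and 8061054 counts, and the EMPA + PFD libraries held 9360259, 10318343 and 10693001.

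Empagliflozin blocks the sodium-glucose cotransporter of the kidney and lowers blood glucose through the urine, and it shifts fuel use toward fatty acids and ketones. Pirfenidone is an antifibrotic drug used in the lung that dampens collagen production by fibroblasts. The working heart takes most of its energy from fatty acid oxidation, which feeds acetyl-CoA into the tricarboxylic acid (TCA) cycle of the mitochondria, and failing hearts are known for lowered expression of these genes and for a fetal gene program.

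Expression is given below as CPM, counts relative to library size after scaling by the trimmed mean of M values (TMM). Cardiac muscle content was checked with 12 measured cardiomyocyte markers. Their CPM summed to 57843 and 45493 in EMPA 1 and EMPA 2 and to 84983, 111917 and 92280.5 in EMPA + PFD 1, 2 and 3. The most abundant was Mb, myoglobin, in EMPA 1, EMPA 2 and EMPA + PFD 1, and Myh6, the fast myosin heavy chain, in EMPA + PFD 2 and 3, and none of the 12 was at 0. Myl7, the atrial myosin light chain, stayed between 0.956 and 20.6 CPM over the 5 libraries. The 14 measured atrial and conduction genes summed to 967 and 5540 CPM in EMPA 1 and 2. In EMPA + PFD 1, 2 and 3 they summed to 438, 907 and 498. Nppa, the atrial natriuretic peptide gene, gave 5124 CPM of the sum in EMPA 2. Cardiac muscle markers were thus present in all 5 hearts, with higher sums in the 3 that had PFD.

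Several libraries stood apart. EMPA 2 carried far more of certain cartilage, bone and smooth muscle transcripts than EMPA 1: Col2a1, the collagen of cartilage, stood at 0.666 CPM in EMPA 1 and 737 in EMPA 2. The same gene was at 1148 CPM in HFpEF 1, a week 5 heart outside the comparison. EMPA 1 carried blood transcripts, with Hbb, a beta globin, at 2033 CPM against 391 in EMPA 2. EMPA + PFD 1 differed from its group in clock genes, with Arntl (Bmal1) at 73.6 CPM against 12.2 and 5.01 in EMPA + PFD 2 and 3. In the vehicle group, untreated 2 stood apart, with Nppa, the atrial natriuretic peptide gene, at 9671 CPM against 18.9 and 434 in the other untreated hearts.

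Sex-linked genes went against the male label outside the comparison. Eif2s3y, a gene of the Y chromosome, gave 676 and 789 counts in EMPA and 825, 906 and 999 in EMPA + PFD, so those 5 libraries fit their label. It gave 0 counts in all 3 untreated libraries, both PFD libraries, HFpEF 1 and HFpEF 3, which allows up to 3 counts in each. LOC100911498, which RefSeq names Xist by its gene ID, had between 13032 and 27077 counts in those same 7 libraries. It had at most 12 in any of the other libraries. The 2 treatment pairs therefore differ in the sex that these genes show, and a difference between them cannot be told apart from sex.

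Between the EMPA + PFD and the EMPA hearts 426 of 12388 genes tested differed, which is 3.44%. A gene counts as differentially expressed (DEG) here at an adjusted p under 0.05 and a change of at least 2-fold, by edgeR's quasi-likelihood F test with Benjamini-Hochberg correction. Of these DEGs, 268 rose (2.16% of genes tested) and 158 fell (1.28%). Without the fold threshold 656 genes were higher and 547 lower, and 3794 had an unadjusted p under 0.05. The median log2 fold change over all genes tested was -0.05, and the median standard error (SE) of a gene was 0.26. DESeq2 called 736 DEGs on the same genes and voom 834.

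The DEGs mostly separated the groups, but many calls were lost when 1 library was left out. A lost call is not by itself a lost difference, since each such fit also has fewer hearts. Of the 268 genes that rose, 266 had the EMPA hearts within 3 times of each other. Over all genes tested, 6271 (50.6%) had all 3 EMPA + PFD values above or below both EMPA values. Among the DEGs, 267 of the 268 that rose and 150 of the 158 that fell did so. The number of DEGs was 76 without EMPA 1, 7 without EMPA 2, 624 without EMPA + PFD 1, 77 without EMPA + PFD 2 and 129 without EMPA + PFD 3. Where an EMPA library is left out, the remaining one is assumed to vary like the libraries of other groups. Of the 426 genes, 57 were still called without EMPA 1 and 6 without EMPA 2, while 424 kept their sign without EMPA 2. Only 4 genes were called in the full data and in each of these 5 fits: Cryl1, RT1-CE16, Acadsb and Dnajc16. With 3 hearts against 2, an exact permutation test of 1 gene cannot go below p = 0.1. A fit of only these 5 libraries called 550 DEGs, 309 of the 426 among them.

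**Figure D1:**
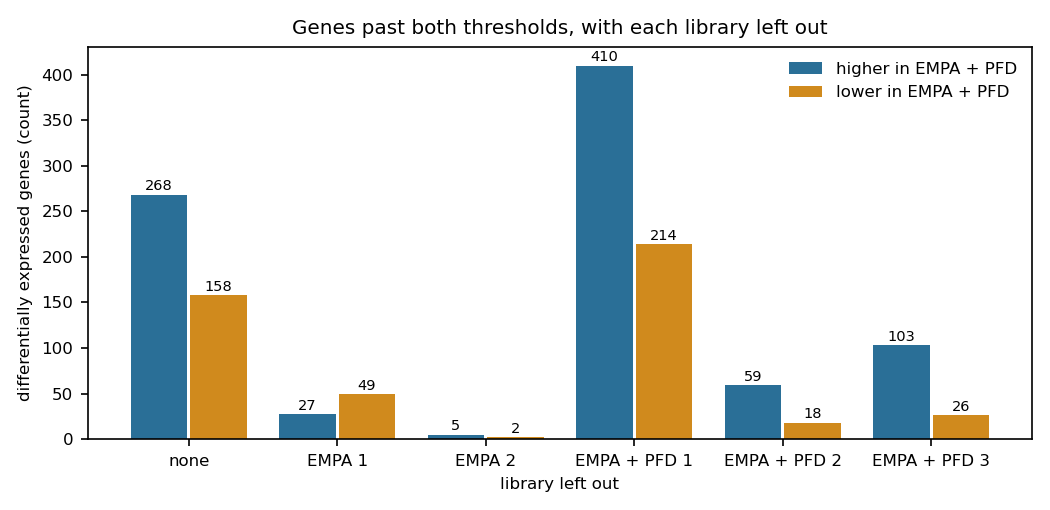
Bars give the number of genes past both thresholds (y axis, count) with no library left out and with each of the 5 libraries left out in turn (x axis), split into higher and lower in EMPA + PFD. The counts fall to 5 and 2 without EMPA 2 and rise to 410 and 214 without EMPA + PFD 1.

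Cryl1, a crystallin family enzyme of the glucuronate pathway that oxidises L-gulonate, rose whichever library was left out. It stood at 16.5 and 11.7 CPM in EMPA 1 and 2 and at 151, 226 and 169.9 in EMPA + PFD 1, 2 and 3. All 3 EMPA + PFD hearts were far above both EMPA hearts. Its log2 fold change was 3.69 (SE 0.36), with an adjusted p of 0.000204 by edgeR's quasi-likelihood F test with Benjamini-Hochberg correction and an adjusted p between 2.92e-26 and 0.0167 over 15 alternatives, all of which called it. Cryl1 was also high in both hearts with PFD alone, at 74.3 and 79.1 CPM, against 26.4, 17.3 and 17.7 in the untreated hearts. That difference did not pass, with a log2 fold change of 1.91 in 2 of 2 hearts and an adjusted p of 0.0801 by edgeR's quasi-likelihood F test with Benjamini-Hochberg correction. Every EMPA + PFD value was higher than in any other library of the series, where the highest was 79.1 CPM.

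Acadsb, chosen after its values were seen, encodes the short/branched chain acyl-CoA dehydrogenase of isoleucine breakdown. Its CPM was 9.19 and 11.9 in EMPA 1 and 2 and 31, 33.1 and 33.4 in EMPA + PFD 1, 2 and 3. Those 3 hearts lay close together and above both EMPA hearts, at a log2 fold change of 1.62 (SE 0.2). Its adjusted p by edgeR's quasi-likelihood F test with Benjamini-Hochberg correction was 0.00255, and between 6.57e-12 and 0.0324 over the alternatives. Dnajc16, a chaperone gene of the DnaJ family also chosen after its values were seen, stood at 6.39 and 10.4 CPM with EMPA and at 22, 27.7 and 22.6 with EMPA + PFD, again without overlap. It rose by a log2 fold change of 1.51 (SE 0.2, higher in 3 of 3), with an adjusted p of 0.00441 by edgeR's quasi-likelihood F test with Benjamini-Hochberg correction and a range of 9.34e-10 to 0.0332 over alternatives.

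Among DEGs without overlap and with a mean of at least 1 CPM, the 10 largest rises held 3 genes of the rat MHC, 1 of them class II, and 6 others of low level besides Cryl1. Acss3, a mitochondrial enzyme that activates propionate, stood at 0.266 and 0.243 CPM in EMPA 1 and 2 and at 2.96, 6.93 and 8.67 in EMPA + PFD 1, 2 and 3. The groups were far apart, at a log2 fold change of 4.54 (SE 0.68). By edgeR's quasi-likelihood F test with Benjamini-Hochberg correction its adjusted p was 0.0078 (0.0776 without EMPA 2, the highest over the alternatives, which went down to 2.04e-05). Lmx1a, a homeobox factor, had no count in either EMPA library and 1.3, 1.43 and 2.3 CPM in EMPA + PFD, at least 4.39-fold higher against a floor of 3 counts per library. Glp2r, the receptor of glucagon-like peptide 2, had so few EMPA counts that the counted ratio of 10.9 has a 95% interval of 3.55 to 54.6. Such floors and intervals cover the error of counting only, not the spread between hearts. Grid1, Rasl10b and Gabrb2 rose by log2 fold changes of 3.71, 3.46 and 3.21, each higher in 3 of 3 hearts. The calls of these last 5 genes were lost without EMPA 1 and without EMPA 2, where the log2 fold changes of Grid1, Rasl10b and Gabrb2 were 4.09, 3.27 and 4.06 (without EMPA 1) and 3.4, 3.71 and 2.65 (without EMPA 2).

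The MHC genes split. RT1-CE16, a class I gene, had 0 counts in both EMPA libraries and 426, 308 and 720 in EMPA + PFD 1, 2 and 3. RT1-Bb, a class II beta chain, likewise had 0 and 0 against 121, 70 and 226 counts, and RT1-A3 had 0 and 0 against 20, 20 and 51. Against the floor of 3 counts per library these are at least 142-fold, 40.4-fold and 8.8-fold higher. By edgeR's quasi-likelihood F test with Benjamini-Hochberg correction the adjusted p was 5.61e-07 for RT1-CE16 (8.65e-11 to 0.0167 over alternatives), 0.00537 for RT1-Bb (4.87e-07 to 0.0602) and 0.0078 for RT1-A3 (0.000139 to 0.0602), each higher in 3 of 3 hearts. The latter 2 lost the call without EMPA 2, where both had an adjusted p of 0.0602 by edgeR's quasi-likelihood F test with Benjamini-Hochberg correction.

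Across the series RT1-CE16 was present or absent by group. It gave 825 to 922 counts in the 3 control hearts of week 9, 583 to 684 in the untreated hearts and 463 and 545 with PFD alone. At week 5 it gave at most 1 count in the controls and at most 3 in the HFpEF hearts. RT1-Bb and RT1-A3 likewise gave at most 1 count in any week 5 heart. In the control, untreated and PFD hearts of week 9 both gave at least 36 counts. The absence of these genes from both EMPA hearts thus matched the week 5 hearts and not the other week 9 hearts. A difference in MHC haplotype between the groups cannot be told apart from treatment. If the animals of the groups differed in this way, the same limit holds for the other DEGs of the comparison. The MHC genes have near-identical copies, so reads could be split among them in the authors' counting, and each value is uncertain.

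Of the 31 tested genes of the MHC and antigen processing list, 3 rose (9.68%, against 2.16% of all genes tested) and 5 fell (16.1%, against 1.28%), with a median log2 fold change of -0.13 (0.05 without EMPA 1). The class I genes RT1-A2, RT1-CE14, RT1-CE5, RT1-T24-1 and RT1-M3-1 fell, by log2 fold changes of -1.63, -1.99, -1.47, -1.95 and -1.01. RT1-A2 stood at 122 and 101 CPM with EMPA and at 52, 43.3 and 13.2 with EMPA + PFD, lowest in EMPA + PFD 3. In the week 9 controls it was between 22.2 and 25.5 CPM. All 5 lost the call without EMPA 1 and without EMPA 2, where the log2 fold change of RT1-A2 was -1.48 and -1.76.

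Some energy genes of the mitochondria rose, though most did not pass. All 20 tested TCA cycle and pyruvate dehydrogenase genes had log2 fold changes above 0 with all 3 EMPA + PFD hearts above both EMPA hearts, against 50.6% of all genes without overlap in either direction. Of these, 5 rose (25%, against 2.16% of all genes tested) and 15 did not pass, and the list's median was 1.12 against -0.05 for all genes tested. Their summed CPM was 12002 and 9584 in EMPA 1 and 2 and 21168, 27262 and 23397 in EMPA + PFD 1, 2 and 3. The median stayed at 1.15 without EMPA 1 and 0.98 without EMPA 2.

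Ogdh, the first subunit of the oxoglutarate dehydrogenase complex, stood at 154 and 118 CPM in EMPA 1 and 2 and at 520.2, 786 and 683 in EMPA + PFD 1, 2 and 3. Cs, citrate synthase, stood at 259.8 and 247 CPM with EMPA and at 799, 1267 and 1153 with EMPA + PFD. In both genes EMPA + PFD 1 was the lowest of its group and still far above the EMPA hearts. Ogdh rose by a log2 fold change of 2.28 (SE 0.41), with an adjusted p of 0.0123 by edgeR's quasi-likelihood F test with Benjamini-Hochberg correction (1.84e-06 to 0.118 over alternatives). Cs rose by 2.08 (SE 0.49), at an adjusted p of 0.0234 by edgeR's quasi-likelihood F test with Benjamini-Hochberg correction (0.000283 to 0.153). Sdha, the flavoprotein of succinate dehydrogenase, Dlat of the pyruvate dehydrogenase complex and Suclg2 of succinyl-CoA synthetase rose by 1.51, 1.58 and 1.17, higher in 3 of 3 hearts. Each of the 5 lost its call without EMPA 1 and without EMPA 2, where the log2 fold change of Ogdh was 2.49 and 2.1 and that of Cs 2.12 and 2.05, and only Ogdh was still called without EMPA + PFD 2 (2.16) or without EMPA + PFD 3 (2.28).

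Of 25 tested genes of fatty acid uptake and oxidation, 3 rose (12%, against 2.16% of all genes tested) and 22 did not pass, at a median of 1.03. In 21 of the 25 all 3 EMPA + PFD values were above both EMPA values, against 2997 of all 12388 genes tested. Hadh, the dehydrogenase of short chain hydroxyacyl-CoA, stood at 171 and 107 CPM in EMPA 1 and 2 and at 660, 899 and 837 in EMPA + PFD 1, 2 and 3. Hadhb, the beta subunit of the mitochondrial trifunctional protein, stood at 1004 and 685 against 2861, 4335 and 3625 CPM. Neither gene's groups overlapped, and EMPA 2 was the lowest heart in both. Their log2 fold changes were 2.52 (SE 0.73) and 2.09 (SE 0.61), with adjusted p of 0.0445 (0.00244 to 0.253 over alternatives) and 0.045 (0.00307 to 0.255) by edgeR's quasi-likelihood F test with Benjamini-Hochberg correction, higher in 3 of 3 hearts. Echs1, the short chain enoyl-CoA hydratase, rose by 2.37. None of these calls held without EMPA 1 (2.9, 2.4 and 2.7), without EMPA 2 (2.22, 1.85 and 2.09) or without EMPA + PFD 2 or 3, and the list's median was 0.74 without EMPA 2.

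Of 18 tested PPAR-alpha targets and ketone genes 1 rose, and the list's median was 0.99 (1.07 without EMPA 1 and 0.89 without EMPA 2). Of 45 tested oxidative phosphorylation genes only Sdha rose by edgeR's test, which at 2.22% is about the share of all genes tested (2.16%), and the median was 0.56 (0.31 without EMPA 2). Of these 45, 28 had all 3 EMPA + PFD hearts above both EMPA hearts and none had them all below. Of all 12388 genes tested, 2997 had them all above and 3274 all below. Glucose genes had 2 rises of 22, at a median of 0.57: Hk2, the insulin-regulated hexokinase, and Gys1, muscle glycogen synthase. Hk2 stood at 8.66 and 13.2 CPM in EMPA 1 and 2 and at 38, 55 and 41.4 in EMPA + PFD 1, 2 and 3, with a wide gap between the groups. It rose by 2.03 (SE 0.35), at an adjusted p of 0.0115 by edgeR's quasi-likelihood F test with Benjamini-Hochberg correction (2.54e-06 to 0.0733 over alternatives, 0.0733 being without EMPA 1 and 0.0679 without EMPA 2). Gys1 rose by 1.62 and was not called without EMPA 1 (1.59) or without EMPA 2 (1.66).

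The next 5 genes, outside the lists, were chosen after they were seen to pass, so they say nothing about such genes as a class. Ppargc1a (PGC-1alpha), the coactivator of mitochondrial biogenesis, stood at 21.4 and 17.4 CPM with EMPA and at 36.1, 94 and 90.3 with EMPA + PFD. Esrrg, an estrogen-related receptor that acts with it, stood at 17.4 and 16.6 against 31.9, 60 and 50.2. Prkaa2, the catalytic alpha subunit of AMP-activated kinase that predominates in muscle, stood at 14.4 and 13 against 48.6, 88.5 and 81.8. In all 3 genes EMPA + PFD 1 lay between the EMPA hearts and the rest of its group. Their log2 fold changes were 1.92, 1.48 and 2.41, with adjusted p of 0.0201 (0.00031 to 0.152 over alternatives), 0.0238 (0.00103 to 0.153) and 0.0151 (3.51e-05 to 0.126) by edgeR's quasi-likelihood F test with Benjamini-Hochberg correction. The fusion genes Opa1 and Mfn2 rose by 1.34 and 1.26. All 5 lost the call without EMPA 1 (2.08, 1.51, 2.49, 1.32 and 1.11) and without EMPA 2 (1.78, 1.44, 2.34, 1.37 and 1.43).

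**Figure D2:**
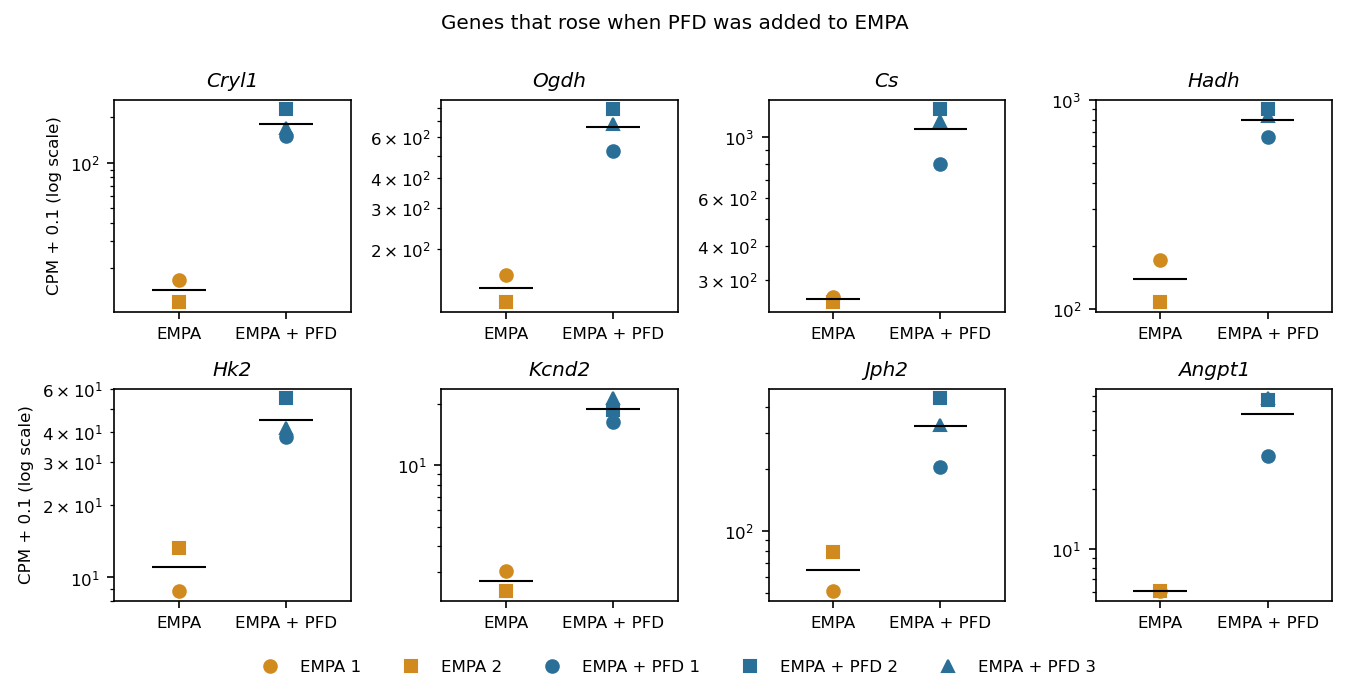
Points give CPM plus 0.1 on a log axis for each EMPA and EMPA + PFD library in 8 genes that rose, and black lines the group means. The 3 EMPA + PFD hearts sit above both EMPA hearts in every panel, Cryl1 at 151 to 226 CPM against 11.7 and 16.5.

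All 12 tested cardiomyocyte markers had log2 fold changes above 0 and 11 had all 3 EMPA + PFD hearts above both EMPA hearts, against 2997 of all 12388 genes tested, though none passed by edgeR's test, and their median was 0.68. Myh6 stood at 4559 and 1707 CPM in EMPA 1 and 2 and at 9191, 32560.4 and 28984 in EMPA + PFD 1, 2 and 3, with EMPA 2 lowest. Its log2 fold change of 2.91 (SE 0.93) had an adjusted p of 0.0582 by edgeR's quasi-likelihood F test with Benjamini-Hochberg correction, 0.00286 to 0.309 over alternatives, and was called without EMPA + PFD 1, where it was 3.32. Among endothelial markers 13 of 14 had log2 fold changes below 0, against 6624 of all 12388 genes tested, at a median of -0.48 (-0.29 without EMPA 1). In 7 of the 14 all 3 EMPA + PFD hearts were below both EMPA hearts, against 3274 of all 12388. The summed CPM of these markers was 7473 and 5473 in EMPA and 4656, 4385 and 4553 in EMPA + PFD. Their most abundant gene was Fabp4 and no marker was at 0. More cells of a type and more RNA per cell cannot be told apart in whole tissue, and the part of the cell mix in the rise of energy genes was not tested.

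Of 35 tested ribosomal protein genes 34 had log2 fold changes below 0, at a median of -0.43, and 30 had all 3 EMPA + PFD hearts below both EMPA hearts, against 3274 of all 12388 genes tested. Only Rpl30, of the large subunit, fell past the 2-fold threshold (2.86%, against 1.28% of all genes tested), by -1.32. Its call was lost without EMPA 2 (-1.31) and without EMPA 1 (-1.34). At the adjusted p alone 15 of the 35 genes passed, all lower, against 547 lower of all 12388 genes tested. Rpl11, also of the large subunit, stood at 609.8 and 652 CPM in EMPA 1 and 2 and at 418, 351 and 344 in EMPA + PFD 1, 2 and 3.

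Some genes of contraction and excitation rose too. Of 20 tested calcium handling genes 3 rose (15%), at a median of 0.71, and of 22 ion channel genes 4 rose (18.2%), at a median of 0.83, against 2.16% of all genes tested. Jph2, which ties the T-tubule to the sarcoplasmic reticulum, stood at 50.9 and 78.7 CPM with EMPA and at 204, 439 and 325 with EMPA + PFD. Kcnd2, the Kv4.2 channel of the transient outward current, stood at 2.93 and 2.31 against 16.2, 18.5 and 21.1. In neither gene did the groups come near each other. They rose by log2 fold changes of 2.32 (SE 0.57) and 2.83 (SE 0.49), with adjusted p of 0.0264 (0.00047 to 0.146 over alternatives) and 0.0111 (1.65e-06 to 0.104) by edgeR's quasi-likelihood F test with Benjamini-Hochberg correction, higher in 3 of 3 hearts. Cacna2d1, a subunit of the L-type calcium channel, and Slc8a1, the sodium-calcium exchanger, rose by 1.27 and 1.11. The potassium channels Kcnk3 (TASK-1), Kcnj2 (Kir2.1) and Kcnj3 (GIRK1) rose by 2.27, 1.51 and 1.82. Without EMPA 2 none of these 7 calls held, with log2 fold changes of 2.67 for Jph2, 2.67 for Kcnd2 and 1.03 for Kcnj2, and without EMPA 1 only Kcnj2 was called (2.23).

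Of 23 tested sarcomere and Z-disc genes 2 rose (8.7%, against 2.16% of all genes tested), at a median of 0.53. Nebl, the cardiac nebulin relative, stood at 56.3 and 61.3 CPM in EMPA 1 and 2 and at 98.5, 234 and 200.4 in EMPA + PFD 1, 2 and 3. Lmod2, which lengthens thin filaments, stood at 14 and 25.7 against 35.7, 119 and 66.8. EMPA + PFD 1 was lowest in its group in both, and the groups did not overlap. The log2 fold changes were 1.59 (SE 0.3) and 1.89 (SE 0.56), at adjusted p of 0.0131 (1.91e-05 to 0.101 over alternatives) and 0.0468 (0.00688 to 0.237) by edgeR's quasi-likelihood F test with Benjamini-Hochberg correction, higher in 3 of 3 hearts. Both were lost without EMPA 1 (1.53 and 1.52) and without EMPA 2 (1.66 and 2.4). In the list of sodium handling genes, among them proposed off-targets of EMPA's drug class, 3 of 16 rose (18.8%), at a median of 0.48 (0.77 without EMPA 1 and 0.29 without EMPA 2), among them Slc8a1 and Slc4a4, the sodium bicarbonate cotransporter (1.19). Without EMPA 2 neither Slc8a1 (1.26) nor Slc4a4 (0.78) was called.

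The study itself named 22 genes of protein kinase C (PKC) and receptor trafficking, all of which were tested here. Of these 2 rose (9.09%, against 2.16% of all genes tested) and 1 fell (4.55%, against 1.28%), and 7 were higher and 5 lower at the adjusted p alone, against 656 and 547 of all 12388, at a median of 0.25 (0.38 without EMPA + PFD 1). The study chose this list partly on the same EMPA + PFD hearts, so its direction is not independent evidence. Prkce, the epsilon isoform of PKC, stood at 8.92 and 8.5 CPM in EMPA 1 and 2 and at 23.4, 41 and 33.2 in EMPA + PFD 1, 2 and 3. The 2 EMPA hearts were alike and all 3 others were higher. Prkce rose by a log2 fold change of 1.9 (SE 0.29), at an adjusted p of 0.0078 by edgeR's quasi-likelihood F test with Benjamini-Hochberg correction, 2.27e-07 to 0.0748 over alternatives, and lost the call only without EMPA 2 (1.87). Prkaca, the catalytic alpha subunit of protein kinase A, rose by 1.11, and S100b, a calcium-binding protein of glia and Schwann cells, fell. Grk4, a receptor kinase, stood at 12.9 and 13.5 CPM with EMPA and at 7.33, 7.41 and 5.75 with EMPA + PFD, all below both, with a log2 fold change of -0.95 that missed the 2-fold threshold.

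In the wider list of adrenergic, PKC and G-protein genes 4 of 43 rose (9.3%, against 2.16% of all genes tested) and none fell by edgeR's test, at a median of -0.25 (-0.15 without EMPA 1 and -0.13 without EMPA 2). Besides Prkce and Prkaca these were Prkar2a and Prkar1a, regulatory subunits of protein kinase A. Prkar2a stood at 12.7 and 15.2 CPM with EMPA and at 37, 46.4 and 46 with EMPA + PFD, with EMPA + PFD 2 and 3 almost equal. It rose by 1.63 (SE 0.26, higher in 3 of 3), at an adjusted p of 0.00816 by edgeR's quasi-likelihood F test with Benjamini-Hochberg correction, 6.04e-07 to 0.0614 over alternatives, and was lost without EMPA 1 (1.51) and without EMPA 2 (1.77). Without EMPA 1 and without EMPA 2 the calls of Prkaca (1.1 and 1.12) and Prkar1a (0.89 and 1.27) were also lost.

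Angpt1, the ligand that stabilises vessels through the Tie2 receptor, was the 1 gene of 25 in the angiogenesis list that rose, while the list's median was -0.28 (-0.12 without EMPA 1 and -0.43 without EMPA 2). It stood at 5.99 and 5.95 CPM in EMPA 1 and 2 and at 29.6, 57 and 58.2 in EMPA + PFD 1, 2 and 3. No other heart of the series exceeded 22.2 CPM. It rose by 3.01 (SE 0.6), at an adjusted p of 0.0151 by edgeR's quasi-likelihood F test with Benjamini-Hochberg correction, 1.19e-05 to 0.124 over alternatives, and lost the call without EMPA 1 (3.02) and without EMPA 2 (3.01), though the value hardly moved. Of 25 TGF-beta genes 1 rose (4%, against 2.16% of all genes tested), at a median of -0.29 (-0.09 without EMPA 2): Tgfbr3, the coreceptor betaglycan, at 48.3 and 46.8 against 110.5, 100.4 and 126 CPM, a log2 fold change of 1.24 (1.26 without EMPA 1 and 1.22 without EMPA 2, both not called). Tgfb1, the main fibrogenic ligand, stood at 50.7 and 55.4 with EMPA and at 37.5, 31.2 and 32 with EMPA + PFD, with a log2 fold change of -0.66 that missed the 2-fold threshold.

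Clock genes divided the EMPA + PFD group. Of 17 tested clock genes 1 rose (5.88%, against 2.16% of all genes tested), Tef, an output factor, at a median of 0.55. Tef stood at 94.6 and 86.5 CPM with EMPA and at 107, 192 and 262 with EMPA + PFD. Dbp, another output factor, stood at 42.6 and 34.1 against 41.9, 94.2 and 152, and Ciart, a clock repressor, at 2.66 and 3.77 against 2.37, 13.4 and 20.8. In all 3 genes EMPA + PFD 1 was at or near the EMPA level while EMPA + PFD 2 and 3 were higher. Zbtb16, a zinc finger factor chosen after its values were seen, split likewise, at 8.66 and 8.87 against 10.1, 106 and 95.4 CPM. Its rise of 3.01 was 3.54 without EMPA + PFD 1 and lost the call without any of the other 4 libraries. Tef was 1.34 without EMPA + PFD 1 and was not called without any of the other 4, with 1.11 without EMPA 1 and 0.99 without EMPA 2. Arntl, which runs opposite in phase to Dbp, had a log2 fold change of -1.06 that did not pass, and of -2.86 without EMPA + PFD 1, which passed. The sources give no time of day, and its part in any of these differences was not tested.

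**Figure D3:**
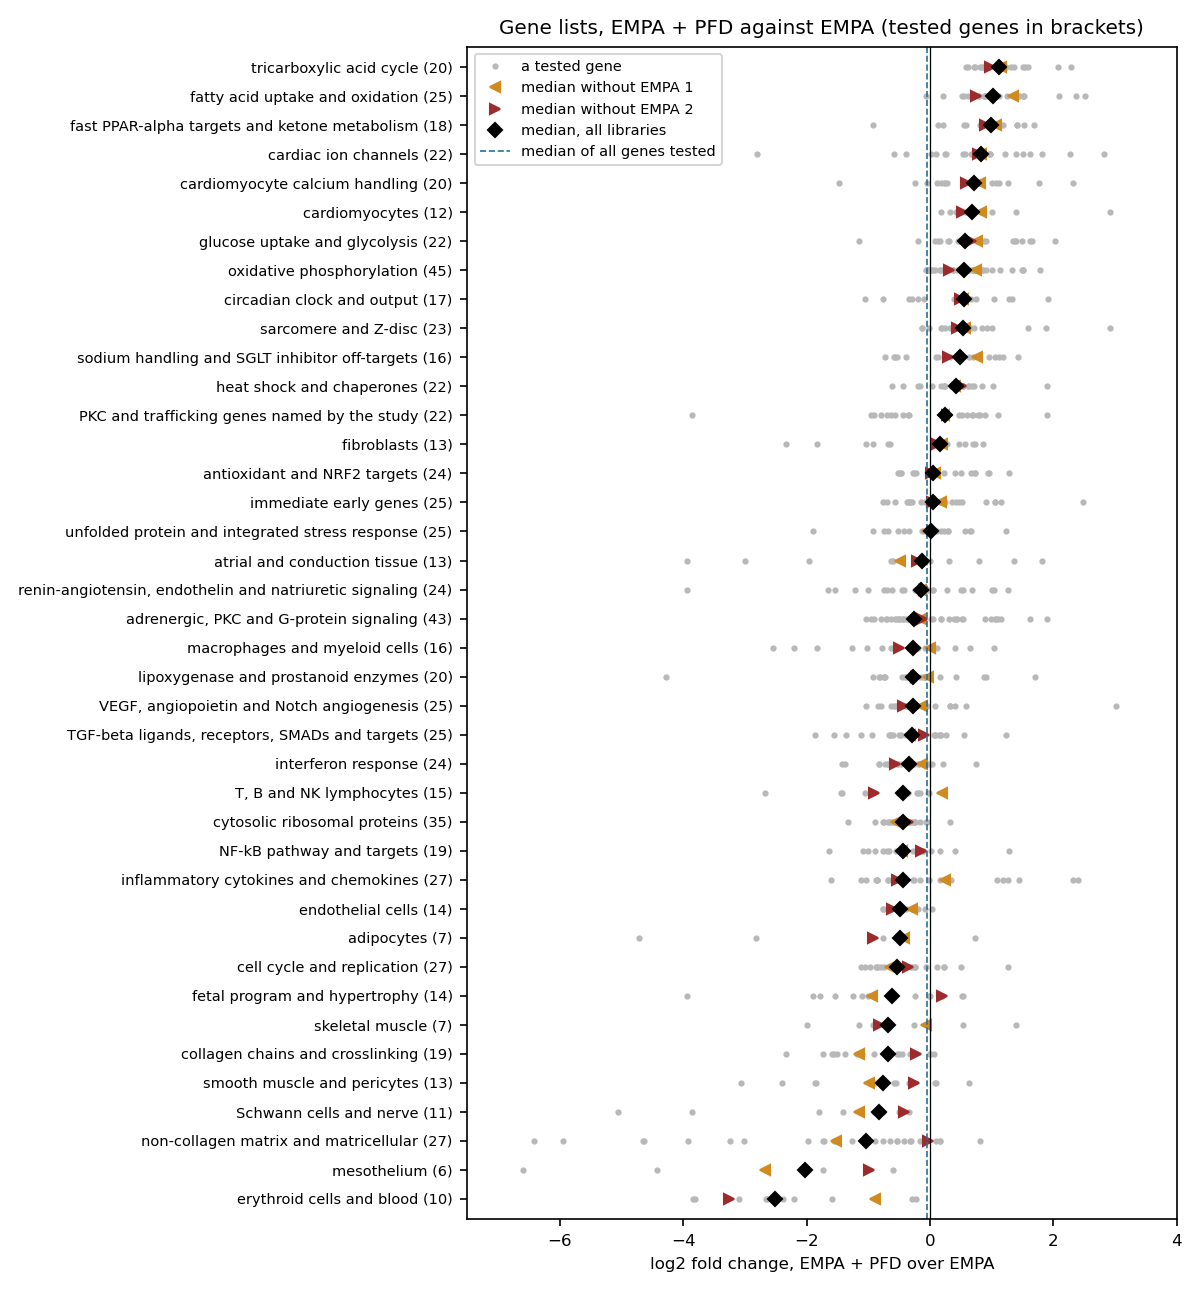
Each line is a gene list with its number of tested genes; grey points are log2 fold changes of single genes, black diamonds the medians over all libraries, and triangles the medians without EMPA 1 or EMPA 2 (x axis, log2 fold change of EMPA + PFD over EMPA). Energy lists sit right of 0 with or without either library, and the matrix list moves from -1.04 to -0.03 without EMPA 2.

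The largest falls came from genes that only EMPA 2 held at a high level. Col2a1 stood at 0.666 and 737 CPM in EMPA 1 and 2 and at 0.118, 0 and 0.104 in EMPA + PFD 1, 2 and 3, a counted ratio of 5090 with a 95% interval of 1410 to 42100. Mmp13, a collagenase of bone and cartilage, stood at 0.133 and 134 CPM with EMPA and had no count in any EMPA + PFD library, at least 195-fold lower against the floor. Spp1, osteopontin, stood at 31.6 and 458 against 0.355, 3.71 and 4.39, and Comp, a cartilage matrix protein, at 4.39 and 223 against 1.66, 1.08 and 2.72. In each of these, EMPA 1 was many times below EMPA 2. It was above the EMPA + PFD hearts in Col2a1, Spp1 and Comp, while in Mmp13 its 1 count lay within the floor of 3 counts. Ibsp, bone sialoprotein, chosen after its values were seen, stood at 1.33 and 237 against 2.01, 1.08 and 1.57 CPM, so that its call of -6.25 reversed to 0.22 without EMPA 2. By edgeR's quasi-likelihood F test with Benjamini-Hochberg correction the adjusted p of Col2a1, Mmp13, Spp1 and Comp was 0.0373, 0.0317, 0.0332 and 0.0324, and 0.841, 0.695, 0.301 and 0.735 without EMPA 2, the highest of their alternatives, whose lowest were 0.0374, 0.0216, 0.00147 and 0.000534. Without EMPA 1 the calls of Col2a1 (-13.03) and Spp1 (-7.32) were lost too, but not those of Mmp13 (-13.42) and Comp (-6.91). Of the 158 genes that fell, 22 had EMPA 2 above 3 times EMPA 1, 13 had EMPA 1 above 3 times EMPA 2, and 123 had the EMPA hearts within 3 times of each other.

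Grem1, a BMP antagonist, Prrx2, a mesenchymal homeobox factor, and Ccl9, a chemokine, were also among the 10 largest falls of DEGs without overlap and with a mean of at least 1 CPM. Grem1 stood at 0.4 and 8.26 CPM in EMPA 1 and 2 and at 0.237, 0 and 0 in EMPA + PFD 1, 2 and 3, a counted ratio of 59.5 with an interval of 15.9 to 501. Prrx2 stood at 1.2 and 9.47 against 0.118, 0.239 and 0.209 CPM, and Ccl9 at 1.46 and 3.52 against 0, 0 and 0.209, a counted ratio of 33.5 (8.7 to 286). Both EMPA hearts were above the others in all 3 genes, EMPA 2 the more so. Their calls were lost without EMPA 2, at log2 fold changes of -2.22 for Grem1, -2.58 for Prrx2 and -4.08 for Ccl9. Without EMPA 1 the calls of Grem1 (-6.55) and Ccl9 (-5.34) were lost too, but not that of Prrx2 (-5.56).

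Of 19 tested collagen and crosslinking genes, edgeR's test called 0, with 0 at the adjusted p alone, and the median was -0.68, or -1.15 without EMPA 1 and -0.22 without EMPA 2. Col1a1, the main chain of type I collagen, stood at 316 and 2989 CPM in EMPA 1 and 2 and at 411, 236 and 333 in EMPA + PFD 1, 2 and 3. Col3a1, of type III collagen, stood at 1170.4 and 2653 against 1479, 748 and 1365. EMPA 2 was the highest heart in both genes, and EMPA 1 lay within the range of the EMPA + PFD hearts. Their log2 fold changes of -2.34 and -0.68 turned to 0.05 and 0.04 without EMPA 2. Of 27 non-collagen matrix genes 2 fell (7.41%, against 1.28% of all genes tested), Spp1 and Comp, at a median of -1.04, or -0.03 without EMPA 2. Summed CPM of the collagen list was 4332 and 9879.9 in EMPA and 4651, 2844 and 4190.5 in EMPA + PFD. Of 13 fibroblast markers none was called, at a median of 0.17 that turned to -0.13 without EMPA + PFD 1. The most abundant was Gsn, gelsolin, except in EMPA 2, where it was Col1a1.

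Markers of other cell types moved with these falls. Of all genes tested 1.28% fell. Of 13 smooth muscle and pericyte markers 2 fell (15.4%), at a median of -0.76, and -0.26 without EMPA 2. Myh11, the smooth muscle myosin, stood at 187 and 839 CPM with EMPA and at 99.7, 178 and 152 with EMPA + PFD, and Tagln, transgelin, at 92 and 593 against 40.6, 80.9 and 73.9. The fold changes of -1.84 and -2.4 shrank to -0.38 and -0.5 without EMPA 2 and neither was called. Of 11 Schwann cell markers 2 fell (18.2%), at a median of -0.83 (-0.42 without EMPA 2), among them S100b, at 3.6 and 30.4 against 1.06, 1.08 and 1.36 CPM. S100b went from -3.85 to -1.61 without EMPA 2 and was not called. Of 6 tested mesothelial markers 1 fell (16.7%), Krt18, a keratin, at 0.4 and 1.94 CPM against 0 in each EMPA + PFD library, at least 3.42-fold lower, and it was not called without EMPA 1 or without EMPA 2. That list's median was -2.02, or -1.75 with Krt18 at its bound and -0.98 without EMPA 2, its most abundant gene was Wt1, and Bnc1 was at 0. Summed CPM was 3034 and 6477 in EMPA against 4043, 4708 and 3899.7 for smooth muscle, 649.9 and 1001 against 586, 468 and 531 for Schwann cells, and 130.4 and 84.9 against 65.3, 85 and 55.4 for mesothelium, with Des and Prnp the most abundant of the former 2 lists and no marker of theirs at 0. The part of these cells in the falls was not tested.

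Blood genes leaned on EMPA 1 instead. Of 10 tested erythroid genes 5 fell (50%, against 1.28% of all genes tested), at a median of -2.51, or -0.89 without EMPA 1. Hba-a1, an alpha globin, stood at 116 and 19.8 CPM in EMPA 1 and 2 and at 4.02, 14.2 and 5.54 in EMPA + PFD 1, 2 and 3. Alas2, the erythroid enzyme of heme synthesis, stood at 55.1 and 10.8 against 2.13, 10.2 and 3.66, and Hbb at 2033 and 391 against 105, 417 and 176. EMPA 1 was highest in all 3 genes, while EMPA + PFD 2 came close to EMPA 2 and passed it in Hbb. The log2 fold changes of Hba-a1, Alas2 and Hbb were -3.1, -2.63 and -2.38, and -1.32, -1.03 and -0.75 without EMPA 1. By edgeR's quasi-likelihood F test with Benjamini-Hochberg correction their adjusted p was 0.0217 (0.00047 to 0.294 over alternatives), 0.0277 (0.00203 to 0.388) and 0.0322 (0.00269 to 0.489), the highest being without EMPA 1, and without EMPA 2 it was 0.0602 in each. Hbb-bs and Ahsp, the alpha globin chaperone, also fell, by -2.66 and -3.81 (-1.12 and -1.47 without EMPA 1). Summed CPM of the list was 2603 and 608 in EMPA and 267, 569.7 and 363 in EMPA + PFD, with Hbb the most abundant gene in all but EMPA + PFD 1 and Hba1 at 0. The globin genes have near-identical copies and their single values are uncertain, and the part of blood in the falls was not tested.

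Myeloid markers had 2 falls of 16 (12.5%, against 1.28% of all genes tested), at a median of -0.27 (0 without EMPA 1 and -0.5 without EMPA 2): S100a8 and S100a9, the calprotectin subunits of neutrophils. S100a9 stood at 38.8 and 12.4 CPM with EMPA and at 1.89, 6.22 and 5.01 with EMPA + PFD, and S100a8 at 15 and 5.47 against 0.71, 3.11 and 2.82. EMPA 1 was highest in both, and their log2 fold changes of -2.54 and -2.2 were -1.5 and -1.3 without EMPA 1 and -3.14 and -2.75 without EMPA 2, with neither called in either case. The most abundant gene of the list was Lyz2, and its summed CPM was 791 and 665 in EMPA against 428, 455 and 687 in EMPA + PFD. All 15 tested lymphocyte markers had log2 fold changes below 0, against 6624 of all 12388 genes tested, and none was called. Their median was -0.43 (0.19 without EMPA 1 and -0.91 without EMPA 2). In only 3 of the 15 were all 3 EMPA + PFD hearts below both EMPA hearts, against 3274 of all 12388 genes tested.

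**Figure D4:**
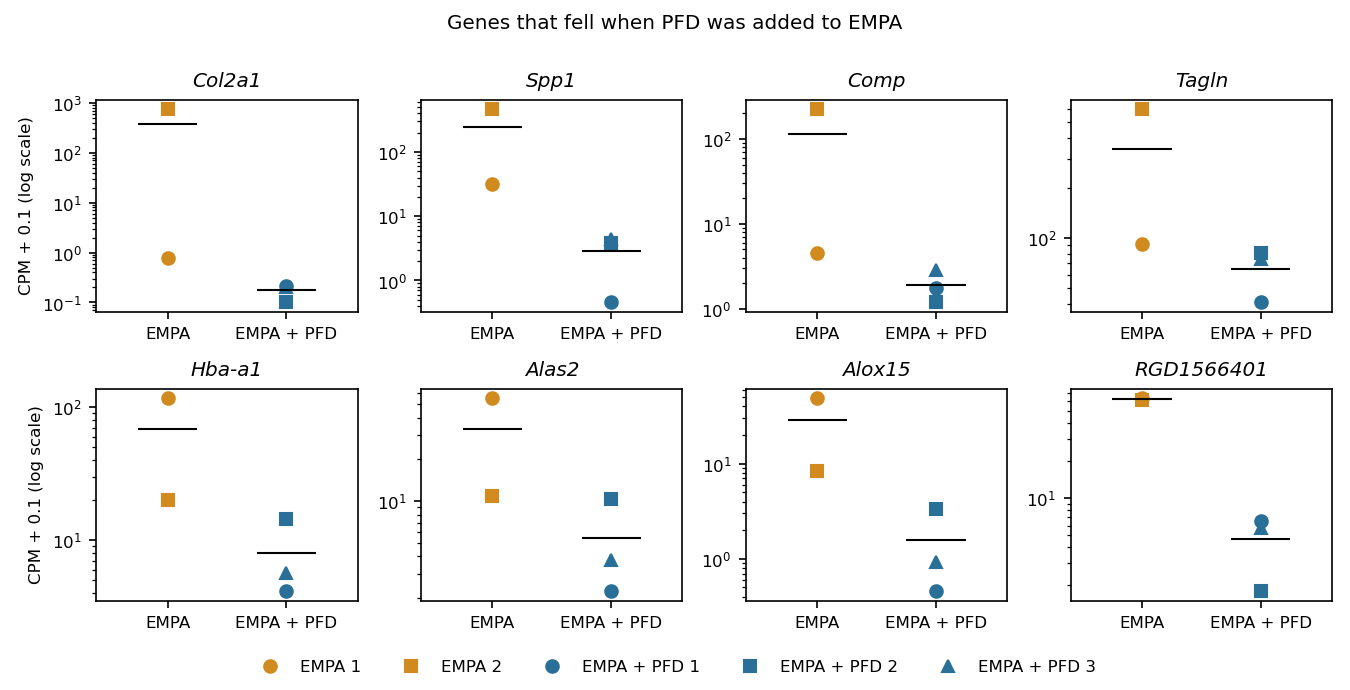
Points give CPM plus 0.1 on a log axis for each EMPA and EMPA + PFD library in 8 genes that fell, and black lines the group means. EMPA 2 is the highest point for Col2a1, Spp1, Comp and Tagln and EMPA 1 for Hba-a1, Alas2 and Alox15, while RGD1566401 stands at 63.4 and 61.3 CPM in the EMPA hearts.

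Alox15, the arachidonate 15-lipoxygenase, was the 1 gene of 20 that fell (5%, against 1.28% of all genes tested) in the lipoxygenase and prostanoid list, whose median was -0.27 (-0.03 without EMPA 1 and -0.08 without EMPA + PFD 1). It stood at 48.6 and 8.26 CPM in EMPA 1 and 2 and at 0.355, 3.23 and 0.836 in EMPA + PFD 1, 2 and 3, with both EMPA hearts above all others of the comparison. It fell by a log2 fold change of -4.27 (SE 0.83), at an adjusted p of 0.0148 by edgeR's quasi-likelihood F test with Benjamini-Hochberg correction, 4.87e-05 to 0.127 over alternatives. It was still called without EMPA 2 (-5.05) but not without EMPA 1 (-2.49) or EMPA + PFD 3. The untreated hearts were low, at 0.211, 0.568 and 0.527 CPM, those with PFD alone stood at 3.18 and 2.57, and the week 5 controls high, at 52.9, 14.7 and 20.7. Myo5c, a myosin of secretory cells chosen after its values were seen, also kept its fall without EMPA 2 (-3.67 with all libraries, -4.4 without EMPA 2, -2.17 and not called without EMPA 1).

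RGD1566401, which RefSeq gives as Meg3, a maternally expressed long noncoding RNA, was chosen after its values were seen and fell from near-equal levels in both EMPA hearts. It stood at 63.4 and 61.3 CPM in EMPA 1 and 2 and at 6.39, 1.67 and 5.64 in EMPA + PFD 1, 2 and 3. No heart outside the EMPA group exceeded 21.3 CPM, so EMPA alone was the high group of the series. The log2 fold change was -3.76 (SE 0.63, lower in 3 of 3), at an adjusted p of 0.0106 by edgeR's quasi-likelihood F test with Benjamini-Hochberg correction, 1.71e-06 to 0.0602 over alternatives. It was called in 14 of 15 alternatives, the exception being without EMPA 2 (-3.78).

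Against 1.28% of all genes tested, 3.7% of cytokine, 10.5% of NF-kB and 4.17% of interferon genes fell. Of 27 tested cytokine and chemokine genes 1 fell, at a median of -0.44 (0.24 without EMPA 1): Csf1, the growth factor of macrophages, at 59.7 and 64.7 CPM with EMPA and 35.2, 21.2 and 29.3 with EMPA + PFD. Of 19 NF-kB genes 2 fell, at a median of -0.43 (-0.14 without EMPA 2): Birc3, an apoptosis inhibitor, by -1.08, and Bcl3, a nuclear cofactor, by -1.01. Of 24 interferon genes 1 fell, at a median of -0.34 (-0.13 without EMPA 1 and -0.56 without EMPA 2): Psmb8, a subunit of the immunoproteasome, at 67 and 46.3 against 30.5, 18.2 and 14.6 CPM. In Csf1 and Psmb8 all 3 EMPA + PFD hearts were below both EMPA hearts, EMPA + PFD 1 being the highest of them. Their log2 fold changes were -1.12 (SE 0.22) and -1.43 (SE 0.26), at adjusted p of 0.0151 (0.000332 to 0.115 over alternatives) and 0.0123 (8.39e-05 to 0.0793) by edgeR's quasi-likelihood F test with Benjamini-Hochberg correction, lower in 3 of 3. Without EMPA 1 the values of Csf1, Birc3, Bcl3 and Psmb8 were -1.18, -0.91, -0.88 and -1.13, and without EMPA 2 -1.06, -1.23, -1.13 and -1.67, with none called.

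Stress and hypertrophy lists held 1 call each, beside 2.16% of all genes tested that rose and 1.28% that fell. Of 14 fetal program genes 1 fell (7.14%), at a median of -0.62, or -0.94 without EMPA 1 and 0.19 without EMPA 2: Slc6a6, the taurine transporter, at 106 and 150 CPM with EMPA and 53.3, 49 and 76.4 with EMPA + PFD. Nppa stood at 678 and 5124 CPM in EMPA and at 60.8, 376 and 134 in EMPA + PFD, too uneven to pass, at a log2 fold change of -3.93 (-1.83 without EMPA 2). Among 24 renin-angiotensin, endothelin and natriuretic genes Mas1, the receptor of angiotensin-(1-7), was the 1 that fell, at 6.13 and 8.62 against 2.37, 2.99 and 1.67 CPM, and the median was -0.14 (-0.09 without EMPA 2). Slc6a6 and Mas1 fell by -1.1 and -1.66, and by -0.82 and -1.38, neither called, without EMPA 2. Of 22 heat shock genes 1 rose (4.55%), at a median of 0.42: Hspa9, the mitochondrial chaperone mortalin, at 191 and 191 against 506, 879.9 and 758 CPM, by 1.9. Of 25 unfolded protein and integrated stress genes Herpud1, of endoplasmic reticulum protein disposal, rose by 1.23, at a median of 0.01 (-0.04 without EMPA 1). Of 25 immediate early genes Nr4a3, a nuclear receptor, rose by 2.48, at a median of 0.05 (0.18 without EMPA 1 and -0.03 without EMPA + PFD 1), but EMPA + PFD 1 overlapped the EMPA hearts, at 4.97 CPM against 4.39 and 6.56, with 53.4 and 33.4 in EMPA + PFD 2 and 3. The calls of Hspa9, Herpud1 and Nr4a3 were lost without EMPA 1 (1.9, 1.51 and 2.22) and without EMPA 2 (1.91, 1 and 2.8).

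By edgeR's test, 0 of 24 antioxidant genes were called at a median of 0.05, 0 of 27 cell cycle genes at -0.54 (-0.35 without EMPA 2), 0 of 7 adipocyte markers at -0.49 (-0.93 without EMPA 2) and 0 of 7 skeletal muscle markers at -0.68 (-0.06 without EMPA 1). Of 13 atrial and conduction markers 1 rose (7.69%), Kcnj3, at a median of -0.13 (-0.49 without EMPA 1 and -0.48 without EMPA + PFD 1). Of 4 tested sex-linked genes none was called, at a median of 0.2. Of all genes tested 2.16% rose and 1.28% fell by edgeR's test. Over all genes 3794 had an unadjusted p under 0.05, and DESeq2 and voom called 736 and 834 in all.

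PFD without EMPA gave a much shorter list. PFD alone against untreated, which shares no library with the comparison above, had 1 DEG of 12388 (0.00807%) by edgeR's quasi-likelihood test, with 646 genes at an unadjusted p under 0.05, 4 DEGs by DESeq2 and 5 by voom. The gene was Scn1a, a neuronal sodium channel subunit, at 7.7, 6.82 and 9.06 CPM in the untreated hearts and 39.9 and 26.5 with PFD. Its log2 fold change was 2.08 (SE 0.28, higher in 2 of 2), at an adjusted p of 0.025 by edgeR's quasi-likelihood F test with Benjamini-Hochberg correction. In EMPA and EMPA + PFD hearts it stood at 34.5, 37.7, 28.4, 33.5 and 21 CPM, with a log2 fold change of -0.39 that did not pass. The call was lost without untreated 2, without untreated 3 and without PFD 1, each giving 0 DEGs.

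The direct test of whether adding PFD acted differently with and without EMPA called 1 gene of 12388 (0.00807%), RT1-CE16, with 1131 genes at an unadjusted p under 0.05, 38 called by DESeq2 and 63 by voom. With EMPA it was at least 142-fold higher in 3 of 3 hearts, against a log2 fold change of -0.18 without EMPA, and the difference had an adjusted p of 3.14e-06 by edgeR's quasi-likelihood F test with Benjamini-Hochberg correction. It rests on the EMPA libraries at 0 counts, and PFD alone and untreated hearts both had it. Leaving out EMPA 2 raised the count to 10, EMPA + PFD 1 to 4 and EMPA + PFD 2 to 7. By edgeR the difference did not pass for the energy genes or Cryl1, though it was not small: it was 1.75 for Ogdh (SE 0.55), 1.66 for Hadh (SE 0.96) and 1.79 for Cryl1 (SE 0.44), at adjusted p of 0.4, 0.638 and 0.292 by edgeR's quasi-likelihood F test with Benjamini-Hochberg correction.

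Side by side, the 2 additions of PFD pointed the same way in most genes, as a description over genes that are not independent. Of all genes tested 8720 (70.4%) had the same sign in both, and of the DEGs 244 of the 268 that rose (91%) and 125 of the 158 that fell (79.1%). The DEGs that rose had a median of 1.46 with EMPA and 0.4 without it, and those that fell -1.48 and -0.28. Without untreated 2, a choice made after seeing the data, the shares were 60.2% of all genes, 80.6% of rises and 63.3% of falls, and the medians without EMPA came down to 0.18 and -0.18. The TCA list had a median of 0.52 for PFD alone, or 0.13 without untreated 2, against 1.12 with EMPA. Fatty acid genes had 0.58, or 0.14, against 1.03. With any 1 library left out, medians kept opposite signs for erythroid genes (1.65 for PFD alone against -2.51 with EMPA), cell cycle genes (0.89 against -0.54), adipocyte markers (0.21 against -0.49) and clock genes (-0.07 against 0.55).

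RefSeq promoters of 300 bases (GRCr8) were found for 208 of the 268 genes that rose, 119 of the 158 that fell and 9760 of all genes tested. The letters AAGGTCA, bound by estrogen-related receptors, were looked for on both strands because Esrrg rose. CACGTG, the E-box, was looked for because Tef, of the clock list, rose, and is not taken as a site that Tef binds. AAGGTCA was in 2.4% of promoters of genes that rose, 0.84% of those that fell, 6.67% of the 75 from the TCA, fatty acid and oxidative phosphorylation lists, and 3.01% of all. CACGTG was in 5.77%, 5.04%, 5.33% and 9.29% of them. A rising energy gene with each is shown, with the matching letters in capitals: Hadhb at chr6:31907451-31907750 on the minus strand and Ogdh at chr14:85363781-85364080 on the plus strand.
Hadhb: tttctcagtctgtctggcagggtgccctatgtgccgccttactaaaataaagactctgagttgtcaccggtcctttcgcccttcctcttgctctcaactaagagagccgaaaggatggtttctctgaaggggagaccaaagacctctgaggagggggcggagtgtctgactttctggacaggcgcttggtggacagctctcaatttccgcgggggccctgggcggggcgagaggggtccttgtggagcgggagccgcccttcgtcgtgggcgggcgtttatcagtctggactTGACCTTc
Ogdh: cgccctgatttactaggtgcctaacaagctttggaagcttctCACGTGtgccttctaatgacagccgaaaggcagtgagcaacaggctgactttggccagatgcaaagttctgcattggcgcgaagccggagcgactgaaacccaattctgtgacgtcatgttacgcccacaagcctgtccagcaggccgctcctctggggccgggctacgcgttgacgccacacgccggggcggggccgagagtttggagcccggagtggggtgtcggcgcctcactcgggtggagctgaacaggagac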

How the data were processed

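The values are the authors' deposited counts per gene symbol for 17455 genes in 19 libraries, made with Trim Galore, FastQC, HISAT2 on rn6 and htseq-count. Strand setting, overlap mode, annotation and versions are not stated. A combined table with identical numbers was not used. Members and gene lists were chosen with earlier results of these data known.

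All 19 libraries were fitted in 1 model of 7 groups with 12 residual degrees of freedom by edgeR 4.0.16 in R 4.3.3, after filterByExpr and TMM scaling, with quasi-likelihood F tests and Benjamini-Hochberg adjustment. The code was tested on simulated data. Alternatives were relative log expression or upper quartile scaling, other filters, voom (limma 3.58.1), DESeq2 1.42.0, only the libraries compared, only week 9, a replicate block, the adjusted p alone, and each library left out. The share without untreated 2 was added after the data were seen.

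Named genes were, per direction, the 10 DEGs with the largest change, no overlap and a mean of at least 1 CPM, up to 4 genes of each list with the lowest p, all genes of the study's list, library check genes, and others marked as chosen after their values were seen. Of the genes tested, 11996 matched a RefSeq symbol, 364 a synonym or ID and 28 nothing.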

Additional observations from a re-analysis of the deposited data

Results flagged for a closer look

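RT1-CE16 was picked out because the effect of adding PFD differed between the hearts with EMPA and those without it, at an adjusted p of 3.14e-06 by edgeR's quasi-likelihood F test with Benjamini-Hochberg correction. The gene had no count in either EMPA library, while the untreated hearts and those with PFD alone had it. The week 5 hearts, which had no EMPA either, gave at most 3 counts.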

How the results depend on the processing

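With 2 EMPA hearts against 3, single libraries moved the calls more than the choice of method did. EMPA + PFD versus EMPA gave 834 DEGs by voom (511 higher, 323 lower), 736 by DESeq2 on the same genes (483 higher, 253 lower) and 733 by DESeq2 on genes with 0.5 CPM in 1 library (483 higher, 250 lower), against 426 by edgeR. It gave 550 with only the 5 libraries (409 higher, 141 lower) and 1203 by the adjusted p alone (656 higher, 547 lower). Other scalings, filters and the week 9 libraries gave between 370 and 457. Leaving out 1 library gave between 7 and 624 DEGs, between 5 and 410 higher and between 2 and 214 lower. Every DEG tested kept its sign in every alternative except 2 without EMPA 2. Among genes whose fold change is given in the text, those whose sign reversed without EMPA 2 were Col1a1, Col3a1 and Ibsp, and over the libraries left out in turn their log2 fold changes ran from -3.19 to 0.05, from -1.15 to 0.04 and from -7.24 to 0.22.

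PFD versus untreated had 1 DEG by edgeR, 5 by voom (3 higher, 2 lower), 4 by DESeq2 with either filter (3 higher, 1 lower), 2 without a filter (2 higher), 2 with the week 9 libraries (2 higher) and 0 with only the libraries compared (0 higher). Leaving out 1 library gave between 0 and 1, all higher. The difference test had 63 by voom (35 higher, 28 lower) and 38 by DESeq2 with either filter (22 higher, 16 lower). It had 2 by relative log expression (2 higher), 2 by upper quartile (1 lower), 3 without a filter (2 higher, 1 lower) and 4 with the week 9 libraries (3 higher, 1 lower). It had 0 (0 higher) among genes with at least 10 counts in every library, a filter that drops RT1-CE16. Leaving out 1 library gave between 1 and 10, between 1 and 4 higher and between 0 and 9 lower.

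A replicate block by sample number gave 198 DEGs for EMPA + PFD versus EMPA (150 higher, 48 lower) and 0 for PFD versus untreated (0 higher). Only numbers 1 and 2 are shared, and the correlations within number, 0.0739 and 0.0553, do not pair the samples. The cause of these differences was not tested.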
